A study of Mus musculus with 16 samples.

Results

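The glucocorticoid receptor gene *Nr3c1* and 9 genes whose transcription the receptor is known to raise were followed in the muscles of dexamethasone-treated mice. They are *Fkbp5*, *Tsc22d3*, *Klf15*, *Ddit4*, *Sgk1*, *Zbtb16*, *Cebpd*, *Mt1* and *Mt2*. The 10 members were taken by gene symbol from the 24421 genes of each count table, and all 10 passed the filter on low counts in every comparison. The muscles sequenced as poly(A) RNA were the gastrocnemius (Gas), made mostly of fast fibers, and the soleus (Sol), rich in slow fibers. There were 3 WT and 5 LSD1-mKO libraries for each muscle, 16 in all. WT mice were *Lsd1*-floxed without CreERT2. LSD1-mKO mice carried *Lsd1* flox/flox with CreERT2 driven by the human ACTA1 promoter, which acts in differentiating and differentiated muscle cells, so other cells of the tissue keep the gene. *Lsd1*, listed as *Kdm1a*, encodes a histone demethylase. Mice of both genotypes were C57BL/6 males, 8 weeks old. All of them received tamoxifen (75 mg/kg, 5 days) and dexamethasone (1 mg/kg, 7 days), a synthetic glucocorticoid, and were fasted before sacrifice. No untreated muscle enters any comparison, so the induction of these genes by dexamethasone itself is not measured here.

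The glucocorticoid receptor is a ligand-activated transcription factor that waits in the cytoplasm in a complex with Hsp90 and its co-chaperones. On binding a glucocorticoid it moves to the nucleus and binds DNA at the glucocorticoid response element, a palindrome of paired hexamers. In skeletal muscle its targets include brakes on its own signal, inhibitors of growth signaling and transcription factors that raise the breakdown of amino acids and protein. Glucocorticoid wasting is known to strike fast fibers more than slow ones.

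Promoter sequences are shown for *Sgk1*, *Mt1* and *Mt2*. Of the 7 members searched, *Sgk1* alone had an exact match to the palindromic response element. *Mt1* and *Mt2* had the most matches to the metal response core. RefSeq windows (GRCm38.p6) from 250 bases before to 50 bases after each annotated start matched 7 of the 10 members, all but *Nr3c1*, *Zbtb16* and *Cebpd*. The palindromic response element was searched as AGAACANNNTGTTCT, its hexamer as AGAACA and the metal response element core of metallothionein genes as TGCACNC or TGCGCNC, each on both strands. The hexamer lies within the palindrome, so matches to the palindrome count for both. Elements with other letters in the hexamers were not searched. The palindrome was found in 3 of 32851 windows (0.00913%), and 1 of these belonged to *Sgk1*. This window starts within an intron of the longer *Sgk1* transcripts and precedes the start of a shorter one. The match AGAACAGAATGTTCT lies at chr10:21993701-21993715, and its first base is 189 bases upstream of that start (position -189). The 250 upstream bases, chr10:21993640-21993889 on the plus strand, are given with the palindrome in capitals.
Sgk1: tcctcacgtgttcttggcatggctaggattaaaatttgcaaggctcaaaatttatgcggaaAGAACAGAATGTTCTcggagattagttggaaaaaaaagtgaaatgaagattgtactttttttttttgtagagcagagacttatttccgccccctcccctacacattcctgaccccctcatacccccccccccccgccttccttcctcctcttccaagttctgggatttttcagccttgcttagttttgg
The hexamer occurred in 19% of all windows, and among the members it was found in those of *Sgk1* (5 matches over 6 windows) and *Tsc22d3* (1 match over 3 windows). No letters of the palindrome or hexamer were matched in the windows of *Fkbp5*, *Klf15*, *Ddit4*, *Mt1* or *Mt2*. The metal response core occurred in 25.7% of all windows. It had 3 matches in the *Mt1* window and 4 in the *Mt2* window, against 1 each in those of *Klf15*, *Ddit4* and *Sgk1*. The 250 bases upstream of each metallothionein start on the plus strand, chr8:94178839-94179088 for *Mt1* and chr8:94172368-94172617 for *Mt2*, are given with the cores in capitals.
Mt1: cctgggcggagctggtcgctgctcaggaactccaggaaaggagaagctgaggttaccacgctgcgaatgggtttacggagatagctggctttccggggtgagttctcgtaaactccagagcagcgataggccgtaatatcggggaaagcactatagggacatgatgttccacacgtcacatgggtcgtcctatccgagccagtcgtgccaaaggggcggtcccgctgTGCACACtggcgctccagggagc
Mt2: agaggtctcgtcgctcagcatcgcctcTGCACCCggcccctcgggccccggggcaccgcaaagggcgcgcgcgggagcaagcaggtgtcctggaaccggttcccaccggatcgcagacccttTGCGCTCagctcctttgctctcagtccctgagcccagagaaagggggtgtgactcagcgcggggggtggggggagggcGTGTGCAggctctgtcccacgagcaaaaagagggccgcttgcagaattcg
The other *Mt1* cores begin at positions 2 and 20 and the other *Mt2* core at position 4, counted from 0 at the start, downstream of the printed bases. These matches describe letters only, and no binding was measured. By GENCODE on GRCm38, *Fkbp5* lies at chr17:28399094-28517527, *Tsc22d3* at chrX:140539528-140600659, *Klf15* at chr6:90462576-90475238 and *Zbtb16* at chr9:48654297-48836222. *Ddit4* (chr10:59949669-59951834) and *Sgk1* (chr10:21882184-21999903) share a chromosome, and *Cebpd* lies at chr16:15887286-15891031. *Mt1* (chr8:94179082-94180327) and *Mt2* (chr8:94172664-94173568) are close neighbours, and the GENCODE starts of both differ from the RefSeq starts used for the windows. Values are reads over the exons of each gene.

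Each library held between 10130415 and 24576377 reads assigned to genes, and the members lay between 29.4 and 986 CPM (a gene's reads divided by its library's TMM-scaled total, on one scale for all libraries), above the 0.122 to 0.296 CPM that 3 reads of a library amount to. *Kdm1a* lay between 33.4 and 48.2 CPM in the WT libraries and between 9.12 and 17.7 CPM in the LSD1-mKO libraries, without overlap in either muscle. The label of the muscles was checked on fixed fiber markers. All 6 slow fiber genes were lower and all 6 fast fiber genes higher in Gas in both genotypes by the edgeR quasi-likelihood test. In 3 libraries the genes of ribosomal proteins stood high, with a mean log2 CPM of 8.68 in replicate 3 of WT Gas, 7.94 in replicate 5 of LSD1-mKO Gas and 7.30 in replicate 2 of WT Sol, against 7.12 to 7.48 in the other Gas and 6.44 to 6.86 in the other Sol libraries. WT Sol replicate 2 held the highest Sol value of 8 of the 10 members, all but *Nr3c1* and *Zbtb16*. WT Gas replicate 3 held the highest Gas value of 5 members, *Nr3c1*, *Tsc22d3*, *Sgk1*, *Cebpd* and *Mt1*. The tests of the members are therefore given with and without these libraries where they differ. Levels, spreads, related lists and correlations were not recomputed with these libraries left out as a set. The summed leukocyte markers ranged from 14.7 to 51.0 CPM in WT Gas, 13.8 to 96.6 CPM in LSD1-mKO Gas, 11.1 to 16.2 CPM in WT Sol and 13.5 to 39.9 CPM in LSD1-mKO Sol. The summed endothelial markers ranged from 214 to 394 CPM over the Gas and from 355 to 512 CPM over the Sol libraries. The part of ribosomal protein level and of other cell types in the results was not tested.

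Levels were taken per kilobase of exon (RPKM, CPM divided by the exon length, with lengths from GENCODE M21 on GRCm38). By this measure the metallothioneins had the highest means of the members in every group. In WT Gas the mean was 502 ± 305 RPKM for *Mt1* and 316 ± 177 RPKM for *Mt2* (SD, n = 3 here and for all WT groups). *Tsc22d3* followed at 224 ± 96.1 RPKM, then *Cebpd* at 147 ± 101, *Fkbp5* at 124 ± 21.1 and *Sgk1* at 97.7 ± 46.5 RPKM. Several of these ranges overlapped, such as those of *Mt2* (111 to 419 RPKM) and *Tsc22d3* (155 to 334 RPKM). *Ddit4* at 58.1 ± 34.2, *Klf15* at 52.3 ± 15.6 and *Zbtb16* at 34.7 ± 16.3 RPKM had overlapping ranges. The receptor gene had the lowest mean in WT, at 19.9 ± 1.90 RPKM in Gas and 14.9 ± 3.09 RPKM in Sol. In WT Sol, however, *Cebpd* (10.8 to 40.5 RPKM) spanned the whole range of *Nr3c1*, whose lowest library was at 11.8 RPKM. In LSD1-mKO Sol the mean of *Cebpd* was the lower, at 11.8 ± 3.19 against 13.7 ± 2.88 RPKM (SD, n = 5), with overlapping ranges. In WT Sol the levels of *Klf15*, *Ddit4*, *Sgk1*, *Zbtb16* and *Cebpd* overlapped one another, with means between 23.1 and 38.7 RPKM.

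The members also differed in how steady they were between mice of the same group. The pooled SD of log2 CPM within groups was 0.179 for *Fkbp5*, at the 11.5th percentile of 10767 genes with enough reads, where the median gene had 0.304. It was 0.369 for *Nr3c1*, and it was 0.866 for *Cebpd* (percentile 98.5), 0.759 for *Mt2* (percentile 97.4), 0.698 for *Ddit4* (percentile 96.2) and 0.694 for *Mt1* (percentile 96.1). Within a group the highest *Cebpd* library was up to 6.87 times the lowest (LSD1-mKO Gas), and for *Fkbp5* no group reached more than 1.40 times.

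**Figure D1:**
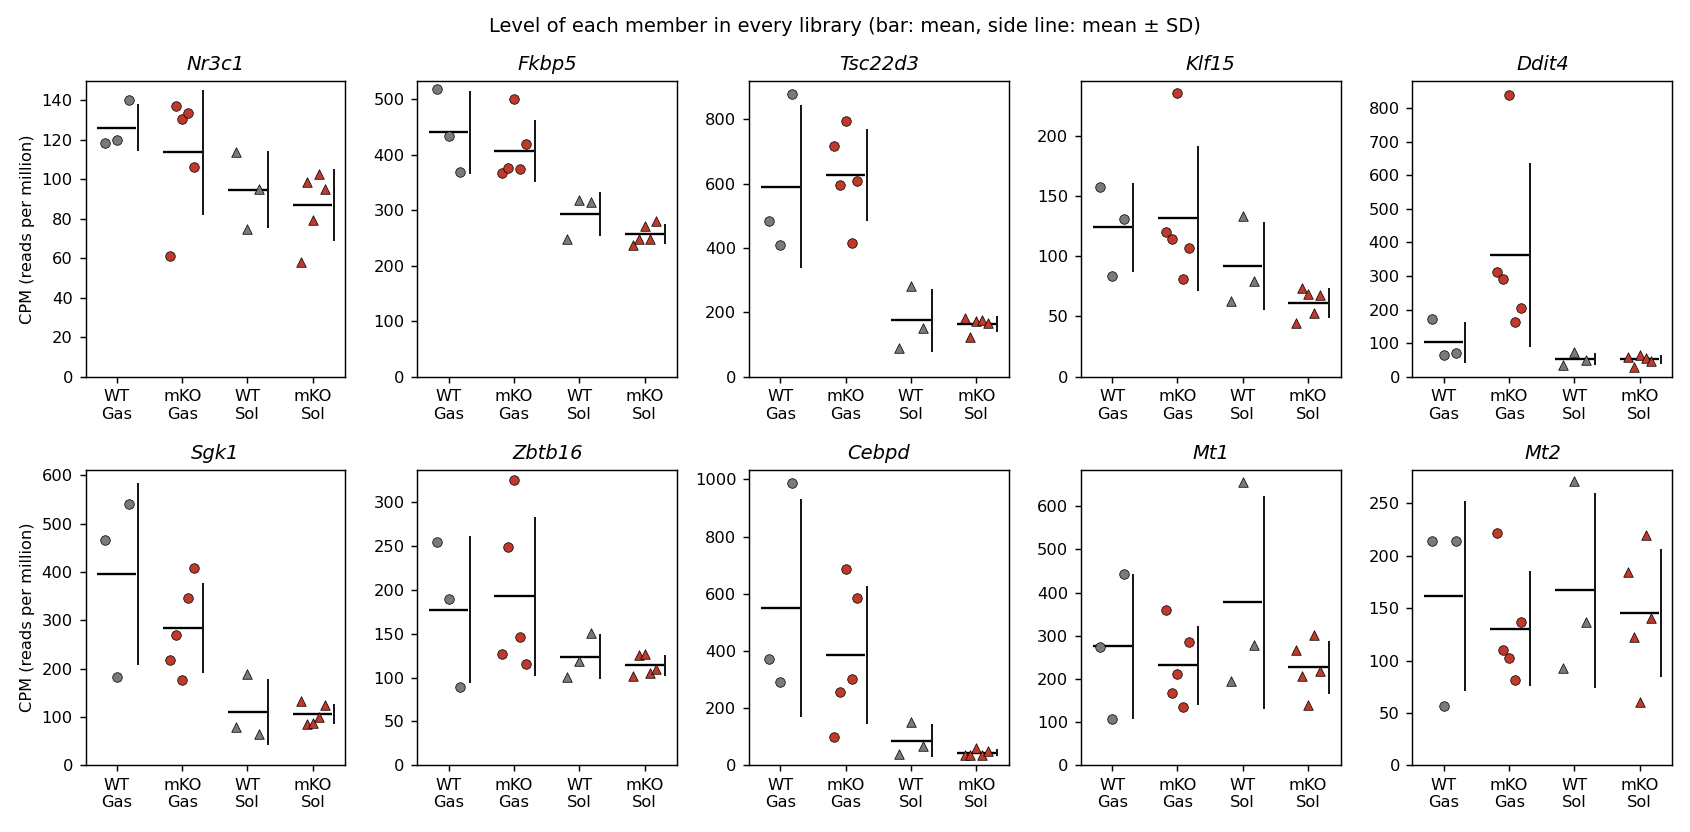
CPM of each member on a linear axis from 0 in every library of WT Gas, LSD1-mKO Gas, WT Sol and LSD1-mKO Sol (gray WT, red LSD1-mKO, circles Gas, triangles Sol), with the group mean as a bar and the mean ± SD as a line beside it. Tsc22d3 and Fkbp5 stand apart between muscles over all libraries, and Cebpd does so within each genotype. No member separates the genotypes within a muscle, and LSD1-mKO Gas replicate 3 is the single high point of Ddit4 (840 CPM) and Klf15 (236 CPM).

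Fast and slow muscle were compared within each genotype, to ask whether the receptor's targets stand at different levels in muscles under the same dose. In WT, 4 of the 10 members passed the test (adjusted p under 0.05), all higher in Gas: *Cebpd*, *Sgk1*, *Tsc22d3* and *Fkbp5*. Of all 13749 genes tested, 17% were called in this comparison and 8.25% were called higher in Gas. In LSD1-mKO, 6 members passed, again all higher in Gas: *Cebpd*, *Ddit4*, *Tsc22d3*, *Sgk1*, *Klf15* and *Fkbp5*, where 24.5% of all genes were called and 11.6% were higher in Gas. WT had 3 and LSD1-mKO 5 libraries for each muscle, so the counts of calls are not read against each other. The median log2 fold change over the 10 members was 0.55 in WT and 0.93 in LSD1-mKO, against 0.013 and 3.69e-05 over all genes tested. The ranges of the groups did not overlap, with Gas higher, for 4 members in WT (*Nr3c1*, *Fkbp5*, *Tsc22d3* and *Cebpd*) and for the 6 called members in LSD1-mKO, where 14.5% and 9.67% of all genes did so. The LSD1-mKO libraries of the same number deviated together across the muscles. With that number as a block and only those libraries in the fit, 8 members were called, *Zbtb16* (adjusted p = 0.0128) and *Nr3c1* (adjusted p = 0.0297) in addition. This fit was chosen after seeing the data. The same libraries without the block gave 7 calls. The block in the fit of 16 libraries, which also joined WT libraries by number, gave 6. The libraries of each muscle were named and counted as a separate set, and an effect of that cannot be told apart from muscle. In whole muscle, fewer cells of a type and less RNA per cell cannot be told apart either.

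The receptor gene itself was not called in either genotype in the fit of 16 libraries, with or without the replicate number as a block. That block also joined WT libraries by number, which were not taken to pair. *Nr3c1* was called higher in Gas in LSD1-mKO when only the LSD1-mKO libraries were fitted, paired by number. That fit was chosen after seeing the data. *Nr3c1* read 118, 120 and 140 CPM in WT Gas and 114, 74.8 and 95.04 CPM in WT Sol. In LSD1-mKO it read 61.1, 137, 130, 133 and 106 CPM in Gas and 58.1, 98.6, 79.3, 103 and 95.02 CPM in Sol, in the order of the replicates. The groups did not overlap in WT but did in LSD1-mKO, where replicate 1 was the lowest library in both muscles, and within each of the 5 pairs of LSD1-mKO libraries Gas was above Sol. The log2 fold change of Gas over Sol was 0.41 ± 0.27 (SE) in WT (adjusted p = 0.31, edgeR) and 0.39 ± 0.21 in LSD1-mKO (adjusted p = 0.188). In the paired fit of the LSD1-mKO libraries it was 0.37 (adjusted p = 0.0297). The 95% confidence interval ran from -0.16 to 0.98 in WT and from -0.05 to 0.83 in LSD1-mKO. Without LSD1-mKO Gas replicate 1 the unpaired LSD1-mKO difference was called as well, at 0.547 (adjusted p = 0.0352).

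Among the targets that damp the glucocorticoid or inflammatory signal are *Fkbp5* and *Tsc22d3*. *Fkbp5* encodes FKBP51, an Hsp90 co-chaperone that lowers the receptor's affinity for its ligand. It read 518, 433 and 369 CPM in WT Gas and 248, 317 and 314 CPM in WT Sol. The LSD1-mKO libraries read 366, 375, 500.1, 375 and 419 CPM in Gas against 236, 249, 271, 247 and 281 CPM in Sol. Every Gas library lay above every Sol library. The difference was small, at a log2 fold change of 0.59 ± 0.18 (SE) in WT (adjusted p = 0.0335) and 0.66 ± 0.14 in LSD1-mKO (1.59-fold, adjusted p = 0.00216). The WT call was lost without WT Gas replicate 1 (0.450, adjusted p = 0.127), WT Gas replicate 2 (adjusted p = 0.0642), WT Sol replicate 1 (adjusted p = 0.166) or WT Sol replicate 3 (adjusted p = 0.0774). It was also lost without the filter on low counts (adjusted p = 0.0843), with the replicate number as a block (adjusted p = 0.0722) and when only the WT libraries were fitted (adjusted p = 0.16), whereas the LSD1-mKO call held under all of these. The block joined WT libraries of the same number, and WT numbers were not taken to pair samples.

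*Tsc22d3* encodes GILZ, a leucine zipper protein that restrains inflammatory transcription. It read 484, 408 and 878 CPM in WT Gas and 90.6, 283 and 153 CPM in WT Sol. In LSD1-mKO it read 715, 597, 794, 415 and 607 CPM in Gas against 183, 122, 173, 175 and 168 CPM in Sol. The lowest Gas library lay above the highest Sol library in both genotypes. It was 3.36-fold higher in Gas in WT (log2 fold change 1.75 ± 0.36, adjusted p = 0.00322) and 3.81-fold higher in LSD1-mKO (1.93 ± 0.28, adjusted p = 0.000103).

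*Ddit4* and *Sgk1* act on growth and stress kinase signaling. *Ddit4* encodes REDD1, an inhibitor of mTORC1. It read 171, 65.5 and 69.3 CPM in WT Gas and 35.3, 72.7 and 49.9 CPM in WT Sol. The LSD1-mKO libraries read 311, 290.1, 840, 164 and 203 CPM in Gas against 58.0, 29.4, 65.7, 55.4 and 47.9 CPM in Sol. The muscles overlapped in WT and were far apart in LSD1-mKO. The log2 fold change was 0.96 ± 0.52 in WT (adjusted p = 0.217) and 2.82 ± 0.42 in LSD1-mKO (7.05-fold, adjusted p = 0.000133). Whether these effects differ was tested as an interaction, given with the genotypes.

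*Sgk1* encodes a serum- and glucocorticoid-regulated kinase that promotes sodium transport and opposes FoxO activity, and its upstream palindrome is the one printed. It read 466, 183 and 540 CPM in WT Gas and 78.7, 190 and 64.2 CPM in WT Sol. In LSD1-mKO it read 218, 270, 178, 347 and 408 CPM in Gas against 132, 86.5, 88.0, 99.8 and 125 CPM in Sol. WT Sol replicate 2 was the only Sol library above a Gas library. The gene was 3.57-fold higher in Gas in WT (log2 fold change 1.84 ± 0.43, adjusted p = 0.00738) and 2.67-fold higher in LSD1-mKO (1.42 ± 0.33, adjusted p = 0.00444).

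*Cebpd*, *Klf15* and *Zbtb16* encode transcription factors. *Cebpd* encodes C/EBP delta, a factor of the acute phase response and of muscle wasting. It read 374, 291 and 986 CPM in WT Gas and 40.3, 152 and 67.8 CPM in WT Sol. The LSD1-mKO libraries read 99.8, 257, 685, 302 and 584 CPM in Gas against 36.7, 36.0, 61.6, 35.0 and 51.9 CPM in Sol. The Gas libraries varied widely, yet each was above every Sol library of its genotype. This was the largest difference among the members, 6.36-fold in WT (log2 fold change 2.67 ± 0.63, adjusted p = 0.00782) and 8.72-fold in LSD1-mKO (3.12 ± 0.50, adjusted p = 0.000212). *Spidr* overlaps *Cebpd* on the other strand in the annotation, and the counting named no strand option.

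*Klf15* encodes a Krüppel-like factor that raises branched-chain amino acid breakdown. It read 157, 84.0 and 131 CPM in WT Gas and 62.7, 133 and 79.6 CPM in WT Sol, which overlap. LSD1-mKO mice had 120, 114, 236, 81.2 and 106 CPM in Gas, all above the 44.3, 73.8, 68.8, 52.6 and 67.9 CPM in Sol. The log2 fold change was 0.44 ± 0.36 in WT (adjusted p = 0.424) and 1.10 ± 0.28 in LSD1-mKO (2.14-fold, adjusted p = 0.00821). *Zbtb16* encodes PLZF, a zinc finger repressor. It read 254, 189 and 89.0 CPM in WT Gas and 101, 119 and 151 CPM in WT Sol, and in LSD1-mKO 115 to 325 CPM (median 146) in Gas and 101 to 127 CPM (median 110) in Sol. The log2 fold change was 0.52 ± 0.37 in WT (adjusted p = 0.356) and 0.76 ± 0.29 in LSD1-mKO (adjusted p = 0.0652). The latter passed by DESeq2 (adjusted p = 0.034) and with the libraries high in ribosomal protein genes left out (0.905, adjusted p = 0.0114).

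The metallothioneins *Mt1* and *Mt2* encode small metal-binding proteins that answer both to metals and to glucocorticoids. *Mt1* read 275, 108 and 443 CPM in WT Gas and 195, 657 and 279 CPM in WT Sol. In LSD1-mKO it ranged from 135 to 361 CPM (median 211) in Gas and from 140 to 301 CPM (median 219) in Sol. *Mt2* read 214, 57.0 and 214 CPM in WT Gas and 93.1, 271 and 137 CPM in WT Sol. In LSD1-mKO it ranged from 81.9 to 222 CPM (median 110) in Gas and from 60.2 to 220.3 CPM (median 141) in Sol. The muscles overlapped throughout. The log2 fold change of *Mt1* was -0.45 ± 0.49 in WT (adjusted p = 0.554) and 0.03 ± 0.37 in LSD1-mKO (adjusted p = 0.964). That of *Mt2* was -0.05 ± 0.51 (adjusted p = 0.96) and -0.16 ± 0.40 (adjusted p = 0.807). The intervals reached from -1.48 to 0.57 for *Mt1* and from -1.13 to 1.03 for *Mt2* in WT, so differences of 2-fold in either direction are not excluded for *Mt2*.

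**Figure D2:**
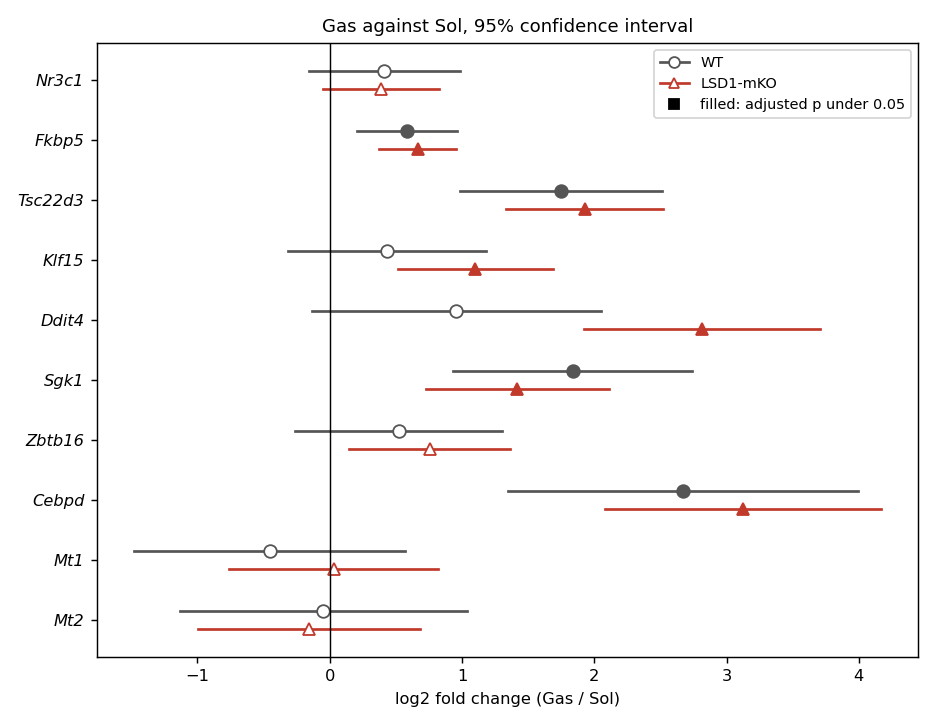
Log2 fold change of Gas over Sol for each member in WT (gray circles) and LSD1-mKO (red triangles), with its 95% confidence interval from the edgeR fit of 16 libraries. Filled symbols have an adjusted p under 0.05, which holds for 4 members in WT and 6 in LSD1-mKO, and Mt1 and Mt2 lie around 0.

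The ribosomal protein level differed between the muscles with some overlap, at 7.12 to 8.68 in Gas and 6.44 to 7.30 in Sol, where WT Sol replicate 2 was above 4 of the 8 Gas libraries. With that level as a covariate, 3 members were called in WT and 7 in LSD1-mKO. In WT, *Cebpd* (1.44, adjusted p = 0.126), *Sgk1* (0.951, adjusted p = 0.118) and *Tsc22d3* (1.00, adjusted p = 0.0562) then missed the threshold, and *Zbtb16* (1.23, adjusted p = 0.0367) and *Mt1* (-1.65, adjusted p = 0.0212) passed it. In LSD1-mKO the 6 calls stayed and *Zbtb16* joined them. With the 3 libraries of high level left out, the same 4 members were called in WT, *Tsc22d3* with the smallest (0.000831) and *Fkbp5* with the largest adjusted p (0.00898). When only the 6 WT libraries were fitted, *Cebpd* alone passed in WT (2.67, adjusted p = 0.04).

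LSD1-mKO was compared with WT in each muscle, to ask whether loss of LSD1 alters the receptor or its targets under dexamethasone. No member was called in either muscle. In Gas 0 of 10 passed, where 0.0307% of 13040 genes did, and in Sol 0 of 10 passed, where 0.967% of 13342 genes did. DESeq2 and the edgeR exact test also called none. At an unadjusted p under 0.05 by edgeR there was 1 member in Gas (*Ddit4*) and there were 2 in Sol (*Cebpd* and *Klf15*), against 9.06% and 15.5% of all genes. The genotypes overlapped for every member in both muscles, whereas 7.01% of the genes in Gas and 11.1% in Sol did not overlap.

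*Ddit4* in Gas had the largest fold change, with WT at 65.5 to 171 CPM and LSD1-mKO at 164 to 840 CPM. Only WT replicate 1 reached into the LSD1-mKO range. The log2 fold change was 1.82 ± 0.57 (3.54-fold), with a 95% confidence interval from 0.56 to 3.09, and it did not pass (adjusted p = 0.426). DESeq2 gave an adjusted p of 0.0502, the other settings on the whole set of Gas libraries, the fit over both muscles and the one without the libraries high in ribosomal protein genes ranged from 0.122 to 0.475, and with single libraries left out the range was 0.252 to 0.806. In Sol the same gene was at 35.3 to 72.7 CPM in WT and 29.4 to 65.7 CPM in LSD1-mKO, a log2 fold change of -0.05 ± 0.27. The interaction of genotype and muscle was 1.86 ± 0.65 for *Ddit4*, with an unadjusted p of 0.0113 and an adjusted p of 0.942. For the interaction 0 of 10 members and 0% of the 13749 genes were called by edgeR, DESeq2 also called no member, and 1 member, *Ddit4*, was under 0.05 unadjusted, against 4.87% of all genes.

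The receptor gene and the other targets in Gas did not pass the test. *Nr3c1* had a log2 fold change of -0.15 ± 0.26, *Fkbp5* of -0.11 ± 0.20, *Tsc22d3* of 0.09 ± 0.29, *Klf15* of 0.09 ± 0.34 and *Zbtb16* of 0.11 ± 0.41. The log2 fold changes of *Sgk1* (-0.47 ± 0.36), *Cebpd* (-0.51 ± 0.57), *Mt1* (-0.24 ± 0.43) and *Mt2* (-0.30 ± 0.43) were negative, with adjusted p between 0.648 and 0.838. For *Fkbp5* the 95% confidence interval from -0.54 to 0.32 was the narrowest, and for *Cebpd* it reached from -1.77 to 0.75.

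In Sol all 10 members had a negative log2 fold change, with a median of -0.17 against -0.01 over all genes. The largest were *Cebpd* at -0.99 ± 0.35 (adjusted p = 0.217), *Mt1* at -0.75 ± 0.35 (adjusted p = 0.339) and *Klf15* at -0.60 ± 0.24 (adjusted p = 0.265). The others were small: *Mt2* at -0.22 ± 0.40, *Fkbp5* at -0.21 ± 0.14, *Nr3c1* at -0.14 ± 0.20, *Zbtb16* at -0.13 ± 0.16, *Tsc22d3* at -0.11 ± 0.30, *Sgk1* at -0.08 ± 0.31 and *Ddit4* at -0.05 ± 0.27. The count rested on WT Sol replicate 2. Without the libraries high in ribosomal protein genes 6 members were negative and 4 positive, *Cebpd* was at -0.292 (adjusted p = 0.644), *Mt1* at -0.0668 and *Klf15* at -0.215, and *Sgk1* turned to 0.571 and *Tsc22d3* to 0.431.

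**Figure D3:**
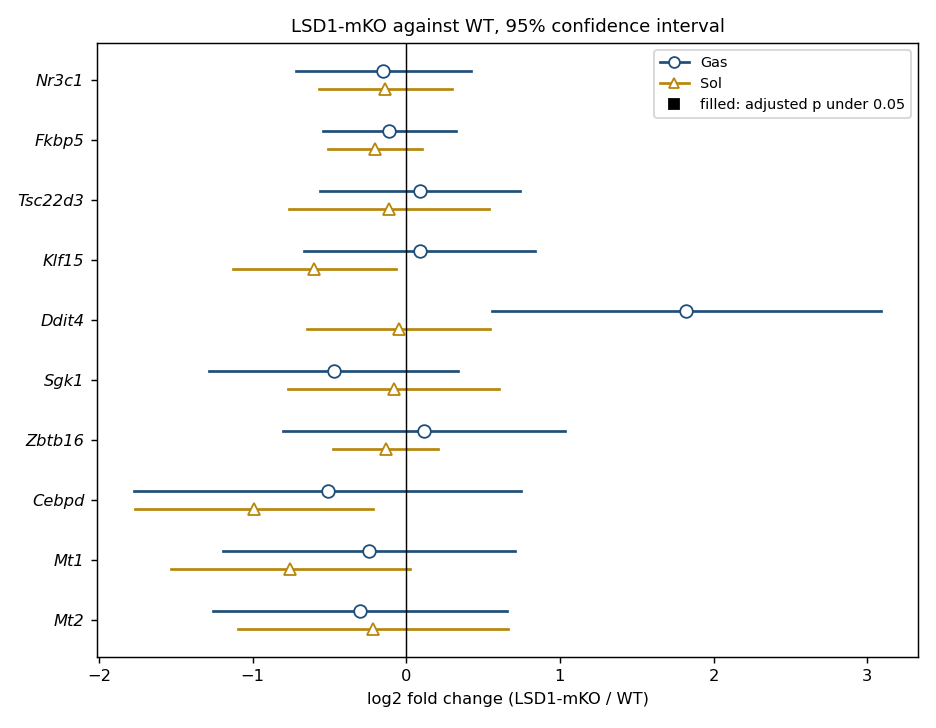
Log2 fold change of LSD1-mKO over WT for each member in Gas (blue circles) and Sol (yellow triangles), with its 95% confidence interval from the edgeR fit of the 8 libraries of that muscle. All symbols are open, since no member had an adjusted p under 0.05, and Ddit4 in Gas (1.82) lies farthest from 0.

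Other genes of the pathway were counted from fixed lists, to be read against the 17% of all genes called between muscles in WT (8.25% higher in Gas) and the 24.5% in LSD1-mKO (11.6% higher in Gas). Of 18 genes of the receptor machinery (chaperones, hormone metabolism, coregulators), 1 was higher and 0 lower in Gas in WT, and 1 was higher and 3 lower in LSD1-mKO, in neither genotype a larger share than among all genes. The gene higher in both was *H6pd*, which supplies the cofactor for the enzyme that regenerates active glucocorticoid (log2 fold change 1.82 ± 0.39, adjusted p = 0.00406 in WT, and 1.81 ± 0.30, adjusted p = 0.00033 in LSD1-mKO). Those lower in LSD1-mKO Gas were the mineralocorticoid receptor gene *Nr3c2* (-1.44 ± 0.38, adjusted p = 0.0114), the corepressor *Ncor1* (-0.44 ± 0.15, adjusted p = 0.0423) and the coactivator *Med1* (-0.43 ± 0.13, adjusted p = 0.0175). The median of the list was -0.05 in WT and -0.02 in LSD1-mKO.

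Of 30 other glucocorticoid-induced genes, 8 were higher and 0 lower in Gas in WT, and 14 were higher and 1 lower in LSD1-mKO, with medians of 0.35 and 0.58, where 8.25% and 11.6% of all genes were called higher in Gas. In WT the largest were *Mstn*, encoding the growth inhibitor myostatin (log2 fold change 6.03 ± 0.53, adjusted p = 1.77e-06), *Trim63*, encoding the ubiquitin ligase MuRF1 (3.25 ± 0.63, adjusted p = 0.00199), and *Ddit4l*, a paralog of *Ddit4* (2.88 ± 0.57, adjusted p = 0.00225). In LSD1-mKO they were *Mstn* (5.56 ± 0.40, adjusted p = 1.11e-07), *Gadd45a*, a stress gene (3.92 ± 0.56, adjusted p = 8.27e-05), and *Arrdc2*, an arrestin domain gene (3.60 ± 0.60, adjusted p = 0.000308). *Dusp1*, encoding a MAP kinase phosphatase, was the one lower (-1.04 ± 0.29, adjusted p = 0.0153). Of 8 metabolic genes downstream of *Klf15*, 1 was higher in Gas in both genotypes, *Gpt2*, an alanine aminotransferase (2.10 ± 0.31, adjusted p = 0.000252 in WT, and 3.14 ± 0.25, adjusted p = 2.92e-07 in LSD1-mKO). In WT 3 were lower, the other alanine aminotransferase *Gpt* (-0.96 ± 0.21, adjusted p = 0.0042) and, of valine breakdown, *Aldh6a1* (-0.86 ± 0.20, adjusted p = 0.00682) and *Hibadh* (-0.51 ± 0.15, adjusted p = 0.0296), and in LSD1-mKO 1 was lower, *Gpt* (-0.49 ± 0.16, adjusted p = 0.0315).

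Of 6 zinc and metallothionein genes, 5 were tested. *Mt3* was higher in Gas in WT (2.46 ± 0.75, adjusted p = 0.0335) and in LSD1-mKO (2.16 ± 0.59, adjusted p = 0.0131), and the zinc importer *Slc39a14* was higher in LSD1-mKO (1.29 ± 0.32, adjusted p = 0.0073). Of 8 inflammatory genes that glucocorticoids repress, 5 passed the filter and 0 were called between muscles by edgeR in either genotype, with 0 at an unadjusted p under 0.05 in WT and 1 in LSD1-mKO (*Ptgs2*, -1.35, unadjusted p = 0.0265). Between genotypes 0 genes of any of these lists were called by edgeR in Gas or Sol. The median of the *Klf15* list was 0.10 in Gas and -0.49 in Sol, where 7 of the 8 were negative, and that of the glucocorticoid-induced list was 0.20 in Gas and -0.12 in Sol, against 0.01 and -0.01 over all genes. The lists were not refitted without WT Sol replicate 2, on which the count of negative members in Sol rested.

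**Figure D4:**
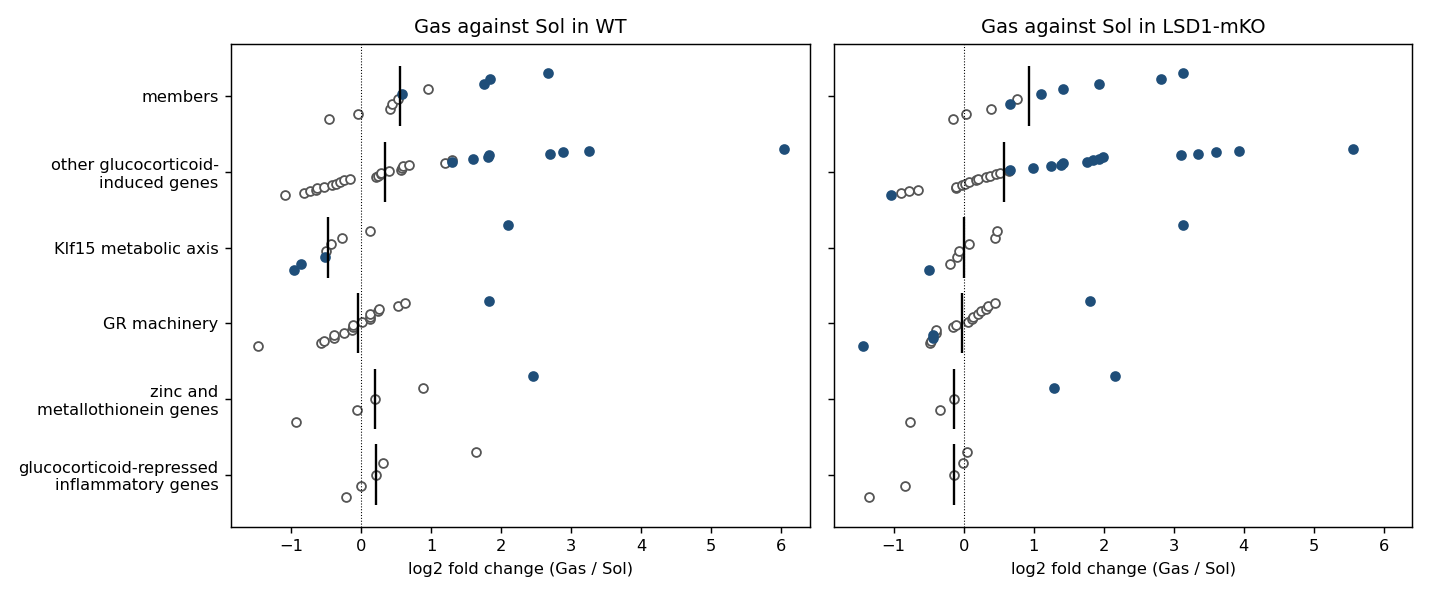
Log2 fold change of Gas over Sol for every tested gene of the members and of 5 related lists in WT (left) and LSD1-mKO (right). Filled points have an adjusted p under 0.05, bars mark each list's median, and points are spread vertically by rank only, with most filled points of the members and of the other glucocorticoid-induced genes on the side of Gas.

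The members were also compared with one another from library to library. Over the 8 libraries of a muscle, genotypes together, the correlations of log2 CPM of all 45 pairs were computed in each muscle (90 tests). The r was positive for 29 of the pairs in Gas and 36 in Sol. Pairs of other genes were not counted, so these counts have no share to be read against. In Sol, WT replicate 2 held the highest value of 8 of the 10 members, and the signs were not recounted without it. No pair passed the adjustment in either muscle, although 2 pairs in Gas and 6 in Sol had an unadjusted exact permutation p under 0.05. The closest pair was *Mt1* with *Mt2*, neighbours on chromosome 8, at Pearson r = 0.936 (exact permutation p = 0.000992, adjusted 0.0536) and Spearman rho = 0.857 (exact permutation p = 0.0107, adjusted 0.161) in Gas. In Sol r was 0.891 (exact permutation p = 0.003, adjusted 0.0725) and rho 0.929 (exact permutation p = 0.00223, adjusted 0.161). Without the 2 libraries farthest from the median of *Mt1*, r was 0.889 in Gas and 0.855 in Sol. The genes are close paralogs, and reads shared by both were left out of the counts. *Fkbp5* with *Cebpd* in Sol had r = 0.881 (exact permutation p = 0.00119, adjusted 0.0536) and rho = 0.857 (exact permutation p = 0.0107, adjusted 0.161), and r was 0.854 without the 2 farthest libraries. *Klf15* and *Ddit4* ranked the 5 LSD1-mKO Gas libraries in the same order, from replicate 4 (81.2 and 164 CPM) through replicates 5, 2 and 1 to replicate 3 (236 and 840 CPM). Over the 8 Gas libraries their r was 0.647 (exact permutation p = 0.082, adjusted 0.454) and rho was 0.5 (exact permutation p = 0.216, adjusted 0.695), with r = 0.279 without the 2 farthest. The shared order is given as a description, and the orders of other pairs were not counted.

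**Figure D5:**
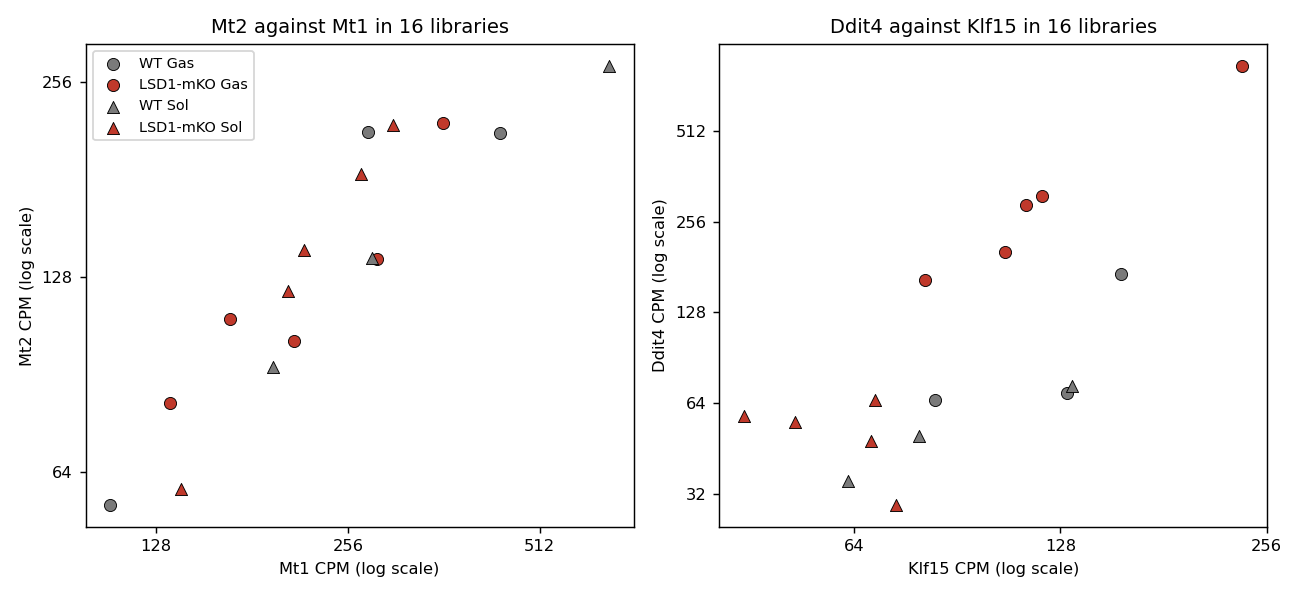
CPM of Mt2 against Mt1 (left) and of Ddit4 against Klf15 (right) in the 16 libraries, on log axes (gray WT, red LSD1-mKO, circles Gas, triangles Sol). The points of Mt1 and Mt2 lie along a rising band in both muscles (r = 0.936 in Gas and 0.891 in Sol). The 5 LSD1-mKO Gas libraries keep one order for Klf15 and Ddit4, whose r over the 8 Gas libraries (0.647) did not pass the adjustment.

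The genes whose levels followed each member most closely were found by Pearson's r of log2 CPM over the 16 libraries after the mean of each group was subtracted, among 10757 genes, and are given as a description. For *Nr3c1* they were *Mbnl1* (r = 0.95), *Asb5* (0.933) and *Inpp4b* (0.893). For the targets the closest gene was *Cdkal1* for *Fkbp5* (r = 0.895), *Slc29a1* for *Tsc22d3* (0.906), *Sesn1* for *Klf15* (0.878), *Spsb1* for *Ddit4* (0.965) and *Mettl17* for *Sgk1* (0.891). It was *S100pbp* for *Zbtb16* (r = 0.897), *Snhg5* for *Cebpd* (0.941), *Krtcap2* for *Mt1* (0.914) and *Tubd1* for *Mt2* (0.872). The libraries share their depth and ribosomal protein level in these values.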

How the data were processed

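Libraries of poly(A) RNA from Gas and Sol were read as 75 bp single ends. Alignment by the authors was to mm10 with STAR, and per the file headers featureCounts 1.5.2 counted reads over the exons of each gene without a strand option. The deposited tables hold raw read counts for each gene, not normalized. Reads shared by several genes or places are not counted, which touches *Mt1*, *Mt2* and the overlap of *Cebpd* with *Spidr*. The authors' tables of their own comparisons (log2 fold change, mean log2 CPM, p-value, adjusted p) were not used. Columns were assigned to samples by library name, and 0 columns belonged to other samples.

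Genes were kept by filterByExpr (minimum count 10), scaled by TMM and tested with edgeR 4.0.16 (limma 3.58.1, R 4.3.3) by the two-sided quasi-likelihood F-test, with Benjamini-Hochberg adjustment over all genes tested and a threshold of 0.05. Genotypes were compared within each muscle, and muscles and the interaction in one fit of 16 libraries, after the tables of the muscles were joined by gene symbol. Standard errors are the log2 fold change over the square root of F. CPM uses TMM over 16 libraries, and log2 CPM a prior count of 2. Limits of 3 reads cover counting error only. The study counts its groups in mice, and the samples of a group were taken as separate mice. Counts of all pairs of libraries of a group differed beyond sampling noise.

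The members, lists and tests were chosen with earlier results of these data known, so no pattern is independent support. The naming rule took all 10 members, up to 3 called genes in each direction of each list and comparison, and the genes most alike each member (mean of at least 50 reads). The alternatives were RLE scaling, no filter, DESeq2 1.42.0, the edgeR exact test, other sets of libraries, the ribosomal protein level as a covariate, the replicate number as a block, each library left out, and, chosen after seeing the data, the libraries high in ribosomal protein genes left out and a block within LSD1-mKO. Of LSD1-mKO samples with the same number in Gas and Sol, the deviations from the group means correlated in all 5 pairs (r = 0.303 to 0.457), so those numbers were taken to pair the samples. In WT r was 0.191, -0.639 and -0.375, and numbers were not taken to pair samples there or between genotypes. Outside the fit of LSD1-mKO alone, the block still joined equal numbers of WT across muscles, and of both genotypes in the genotype tests. On simulated counts with 200 genes changed by a log2 fold change of 2 in size (4-fold), 188 were recovered in the Gas and 195 in the Sol comparison of genotypes, 186 in the WT and 195 in the LSD1-mKO comparison of muscles and 168 in the interaction, with 7 to 13 false calls. Smaller changes were not simulated, nor was a shift shared by genes of a library, as in the ribosomal protein genes. The changed genes were drawn at random, so these rates are not those of the members with a wide spread. Such members are *Cebpd*, *Mt2*, *Ddit4* and *Mt1*.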

Additional observations from a re-analysis of the deposited data

Results flagged for a closer look

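Among the 10 members in the 2 groups of 5 libraries (20 groups of values), 3 had a library far from the others, with a gap of more than 0.71 of the whole range to its nearest neighbour. Chance flags about 1 in 20 such groups if the values are normal and the groups independent, which was not checked. The gaps were taken on CPM, not on log2 CPM, and the flags of *Ddit4* and *Klf15* came from the same library. The number of flags is therefore not read against that rate. *Ddit4* in LSD1-mKO Gas replicate 3 stood at 840 CPM against 164 to 311 CPM in the other libraries (gap 0.782 of the range). *Klf15* in the same library stood at 236 CPM against 81.2 to 120 CPM (gap 0.748). *Tsc22d3* in LSD1-mKO Sol replicate 2 stood at 122 CPM against 168 to 183 CPM (gap 0.76).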

How the results depend on the processing

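Every count of members called stayed within 1.5 times its value under the alternatives, except for Gas against Sol in WT, which fell from 4 to 1 when only the WT libraries were fitted, and the cause was not tested. A similar count did not always mean the same members. Given the ribosomal protein level as a covariate, the WT count was 3, with *Cebpd*, *Sgk1* and *Tsc22d3* lost. *Zbtb16* (higher in Gas) and *Mt1* (lower in Gas) were gained there. No member was called between the genotypes or in the interaction under any of the alternatives. For Gas against Sol the count ran from 3 to 4 in WT and from 6 to 8 in LSD1-mKO with single libraries left out. With the replicate number as a block across muscles it was 3 in WT, where *Fkbp5* lost its call (adjusted p = 0.0722), and 6 in LSD1-mKO, and the block changed no other call in that fit. WT numbers were not taken to pair samples, so the blocked WT count does not rest on known pairs. Of the changes in sign, all were of log2 fold changes that had not been called and were not called with the other sign. Given the ribosomal protein level as a covariate, *Zbtb16* was -0.333, *Cebpd* 0.0973, *Mt1* 0.339 and *Mt2* 0.0681 for LSD1-mKO against WT in Gas, *Tsc22d3* was 0.0411, *Ddit4* 0.013 and *Sgk1* 0.0786 for LSD1-mKO against WT in Sol, *Mt1* was -0.685 for Gas against Sol in LSD1-mKO, *Zbtb16* was -0.0646 and *Mt2* 0.208 for the interaction. With the libraries high in ribosomal protein genes left out (chosen after seeing the data) *Zbtb16* was -0.0493, *Cebpd* 0.0323 and *Mt1* 0.206 for LSD1-mKO against WT in Gas, *Tsc22d3* was 0.431, *Ddit4* 0.269, *Sgk1* 0.571 and *Mt2* 0.34 for LSD1-mKO against WT in Sol, *Mt2* was 0.253 for Gas against Sol in WT, *Mt1* was -0.0397 for Gas against Sol in LSD1-mKO, *Nr3c1* was 0.212 and *Fkbp5* -0.112 for the interaction. With the replicate block *Sgk1* was 0.0276 for LSD1-mKO against WT in Sol, *Mt1* was -0.00283 for Gas against Sol in LSD1-mKO. Without a filter on low counts *Nr3c1* was 0.0227 for the interaction. With single libraries left out, the ranges of the log2 fold changes that turned were, for LSD1-mKO against WT in Gas, -0.225 to 0.0072 for *Nr3c1*, -0.215 to 0.0257 for *Fkbp5*, -0.0913 to 0.499 for *Tsc22d3*, -0.226 to 0.299 for *Klf15*, -0.192 to 0.466 for *Zbtb16*, -0.818 to 0.22 for *Cebpd* and -0.604 to 0.282 for *Mt1*. For LSD1-mKO against WT in Sol they were -0.27 to 0.0229 for *Nr3c1*, -0.414 to 0.431 for *Tsc22d3*, -0.263 to 0.269 for *Ddit4*, -0.335 to 0.571 for *Sgk1*, -0.256 to 0.0496 for *Zbtb16* and -0.492 to 0.34 for *Mt2*. For Gas against Sol in WT they were -0.952 to 0.198 for *Mt1* and -0.35 to 0.479 for *Mt2*. For Gas against Sol in LSD1-mKO they were -0.186 to 0.175 for *Mt1* and -0.435 to 0.0624 for *Mt2*. For the interaction they were -0.159 to 0.132 for *Nr3c1*, -0.0323 to 0.215 for *Fkbp5*, -0.336 to 0.583 for *Tsc22d3*, -0.0823 to 0.588 for *Zbtb16*, -0.21 to 1.18 for *Cebpd*, -0.169 to 1.01 for *Mt1* and -0.638 to 0.214 for *Mt2*. The causes of these changes were not tested. Depth did not limit the detection of any member, since each had at least 29.4 CPM in every library.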
